A study of Mus musculus with 9 samples.

Results

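A set of 58 genes for xenobiotic and drug-metabolising enzymes was read out of the 12339 genes measured in sorted mouse lung tumour cells. Members were taken by name as cytochromes P450 of families CYP1 to CYP4 (14 genes), UDP-glucuronosyltransferases (Ugt, 6 genes), glutathione S-transferases (Gst, 15 genes), aldehyde dehydrogenases (Aldh, 17 genes), sulfotransferases (Sult, 3 genes) and carboxylesterases (Ces, 3 genes). The rule reads gene names only. The name rule takes in more than drug metabolism: Aldh18a1 makes proline, Aldh6a1 breaks down valine, Aldh7a1 breaks down lysine and Gstz1 acts in tyrosine breakdown.

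Drug-metabolising enzymes are usually ordered into phases. Phase I enzymes, mainly P450s, oxidise or hydrolyse lipophilic compounds, and phase II enzymes attach glucuronic acid, sulfate or glutathione so that transporters can export the product. In the airway and alveolar epithelium these enzymes act on inhaled compounds and on aldehydes from lipid peroxidation. Their genes are known targets of the aryl hydrocarbon receptor (AHR, with its partner ARNT), of the pregnane X receptor (Nr1i2), of the oxidant-responsive factor NRF2 (Nfe2l2), which KEAP1 holds for degradation, and of the hepatocyte nuclear factors.

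KP-GFP cells, a C57BL/6 mouse lung tumour line that carries GFP, were grown as spheroids with lung tissue-resident macrophages (TRMs, which the submitters equate with alveolar macrophages), with bone-marrow monocytes, or alone. The question was what each kind of macrophage does directly to the cancer cells. The labels give no further genotype of the tumour cells, and all 3 groups share that line. Each spheroid was seeded with 2500 tumour cells, to which 5000 TRMs, 5000 monocytes or no other cells were added, and was harvested after 7 days; 32 spheroids of a condition were pooled and GFP-positive cells were sorted from them. Each group had 3 libraries, and nothing in the labels says that these came from separate cultures, so p-values measure the spread between these libraries, which may be technical.

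The libraries held 16001895 to 32771448 reads over the genes of the table, and levels are given as the deposited CPM, counts scaled to library size, which contain 0.5 read added by the authors. All 8 markers of tumour epithelium were present, with summed levels of 10430 to 19090 CPM. With TRMs 0 of them were higher and 1 was lower (Cldn4). With monocytes 0 were higher and 3 lower (Cdh1, Cldn4 and Cldn7). Of all genes tested, limma called 8.15% lower and 10.2% higher with TRMs at an adjusted p under 0.05. With monocytes it called 12.7% lower and 14.7% higher. Of 25 myeloid markers, 17 were in the table, with summed levels of 179 to 335 CPM with TRMs, 195 to 260 CPM with monocytes and 170 to 255 CPM alone. Cd14 was the largest part of this sum in every library, so the sum says little about the other markers. It was at 84.3 to 202.4 CPM with TRMs, 95.7 to 165.6 CPM with monocytes and 104.5 to 213.5 CPM alone. Among these 17, 2 were higher and 0 lower with TRMs, and 2 were higher and 3 lower with monocytes. The macrophage marker Mrc1 was at 22.4 to 39.8 CPM with TRMs, 34.6 to 47.9 CPM with monocytes and 4.98 to 5.37 CPM alone, and F13a1 was at 7.22 CPM or more in every co-culture library and at 1.31 CPM or less alone. The defining marker Ptprc was at 0.501 to 4.47 CPM with TRMs, 0.021 to 0.565 CPM with monocytes, where replicate 3 had 0 reads, and 0.916 to 3.46 CPM alone. The part of carried-over cells in the results below was not tested. Monocyte replicate 3 had 7 members at 0 reads, the most of any library, followed by TRM replicate 3 with 5 and monocyte replicate 1 with 4. The lowest correlation across genes between libraries of a group was 0.908 with monocytes, 0.940 with TRMs and 0.936 alone.

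Some markers of lung epithelium also differed, in both directions. Of 8 markers of club and ciliated airway cells, 5 were in the table, with summed levels of 36.8 to 38.3 CPM with TRMs, 32.7 to 38.01 CPM with monocytes and 51.6 to 78.1 CPM alone. In each comparison with tumour cells alone 2 of the 5 were lower (Foxj1, a regulator of ciliated cells, and the mucin Muc5b). In each, 1 was higher (Trp63, a basal cell regulator). Of all genes, 8.15% were lower and 10.2% higher with TRMs, and 12.7% were lower and 14.7% higher with monocytes. Foxj1 was at 5.57 to 8.92 CPM with TRMs, 2.49 to 5.49 CPM with monocytes and 18.5 to 23.7 CPM alone (limma adjusted p = 0.00422 and 0.000171). Of 12 alveolar epithelial markers, 4 were in the table, with summed levels of 166 to 183 CPM with TRMs, 179.7 to 231 CPM with monocytes and 179.9 to 263 CPM alone; 2 were lower (Sftpd and Abca3, of type II cells) and 1 was higher (Aqp5, of type I cells) in each comparison. Sftpd, surfactant protein D, was at 2.99 to 8.98 CPM with TRMs, 2.53 to 9.95 CPM with monocytes and 22.6 to 46.96 CPM alone (limma adjusted p = 0.00202 and 0.000801). The part of these epithelial states in the enzyme results was not tested.

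With either added cell type, the tumour cells held less RNA of most of the enzymes whose level differed. With TRMs, 26 of the 58 members (44.8%) were called by limma at an adjusted p under 0.05, where 18.4% of all 12326 genes tested were called. Of these, 20 members (34.5%) were lower, against 8.15% of all genes, and 6 members (10.3%) were higher, against 10.2% of all genes. With monocytes, 25 members (43.1%) were called, against 27.3% of all genes: 18 (31.0%) were lower, against 12.7% of all genes, and 7 (12.1%) were higher, against 14.7%. The median log2 difference over the 58 members was -0.87 with TRMs and -1.01 with monocytes, while over all genes it was -0.0019 and -0.0164. All 58 members passed the filter on low values. Both comparisons use the same 3 libraries of tumour cells alone, so their values are set side by side and their likeness is not tested.

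These counts shifted when single libraries were left out. The count of lower members with TRMs was 14 without TRM replicate 2, 13 without TRM replicate 3, 12 without alone replicate 1 and 12 without alone replicate 3. With monocytes it was 12 without alone replicate 3 and 22 without monocyte replicate 3. The summed level of the set showed the same picture in every library: 2363, 2130 and 1882 CPM with TRMs, 2041, 2128 and 2405 CPM with monocytes, and 4062, 3539 and 3680 CPM alone. Gsto1 carried the largest share of that sum, and without it the sums were 1410 to 1629 CPM with TRMs, 1500 to 1744 CPM with monocytes and 2657 to 3090 CPM alone. A few other abundant genes set much of the remaining difference. Gstm1 averaged 101 CPM with TRMs, 150 with monocytes and 579 alone. Cyp1b1 averaged 189, 161 and 462 CPM, and Gsta4 84.8, 90.6 and 290.5 CPM, in the same order. In these sorted bulk samples, fewer cells that express a gene and less RNA per cell cannot be told apart.

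**Figure D1:**
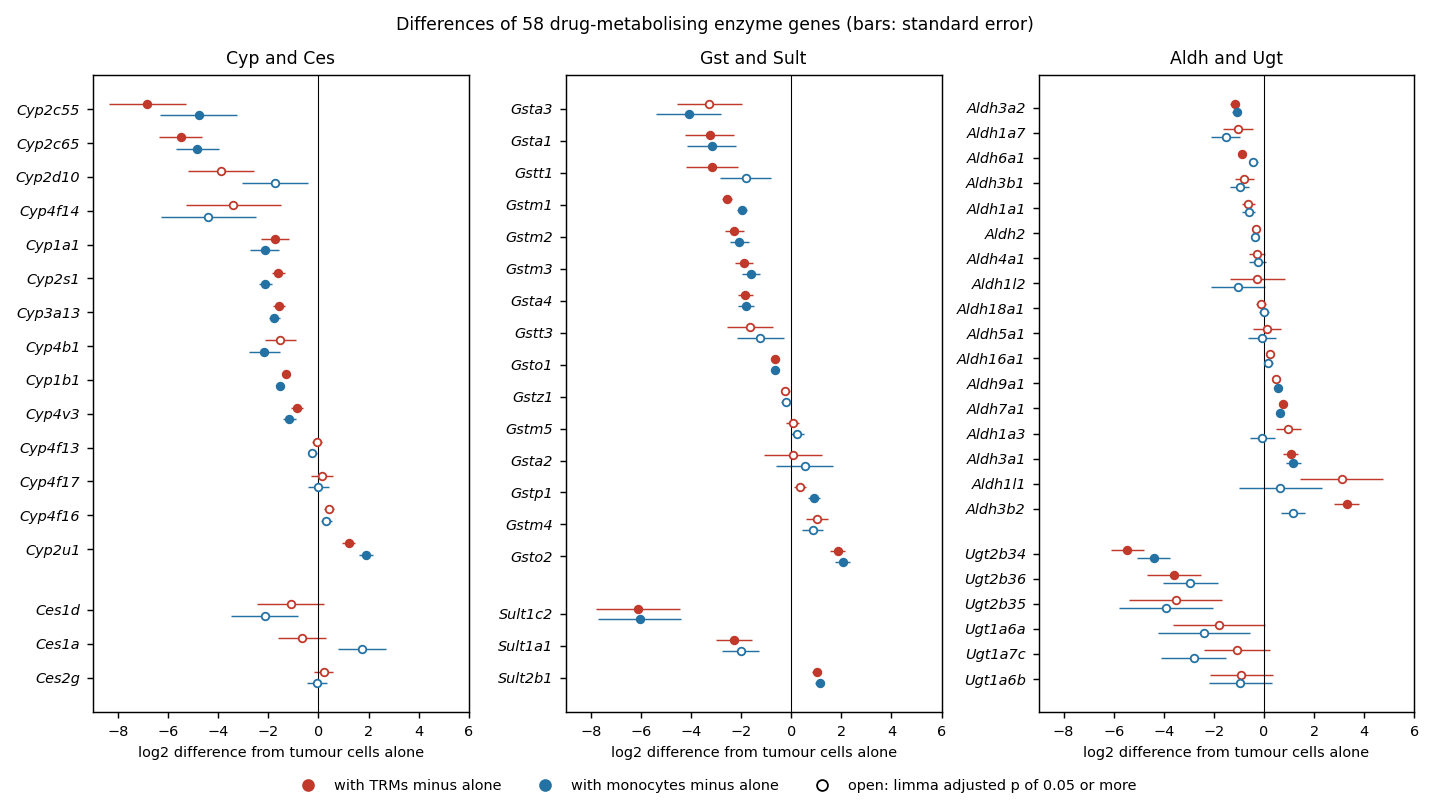
Log2 difference of each of the 58 members with TRMs (red) and with monocytes (blue) from tumour cells alone, with standard error bars, by family; filled points were called by limma at an adjusted p under 0.05. Filled points lie mostly left of 0 in the Cyp, Gst, Sult and Ugt families, where 18 of 20 members called lower with TRMs belong, and on both sides of 0 in the Aldh family.

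Among the cytochromes P450, 7 of 14 members were lower and 1 was higher with TRMs, against 8.15% and 10.2% of all genes. With monocytes 8 were lower and 1 was higher, against 12.7% and 14.7% of all genes. The median log2 difference of the P450 members was -1.54 with TRMs and -1.76 with monocytes, against -0.0019 and -0.0164 over all genes. Without alone replicate 3 the lower counts were 4 and 5, and without TRM replicate 2 the count of higher members with TRMs was 0. The summed P450 level was 355, 303 and 316 CPM with TRMs, 247, 280 and 326 CPM with monocytes, and 849.6, 645 and 778 CPM alone, so the groups with and without added cells did not overlap. Most of this sum was Cyp1b1, with means of 189 CPM with TRMs, 161 with monocytes and 462 alone.

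CYP1A1 and CYP1B1, P450s classically induced through AHR, were both lower. Not every gene tied to AHR was called lower. Aldh3a1 was higher in both comparisons, with limits given below, and Ahrr, Tiparp and Nqo1, named after their values were seen, were not called. The limma adjusted p of these 3 was 0.445, 0.445 and 0.916 with TRMs and 0.685, 0.14 and 0.161 with monocytes. Cyp1b1, which also oxidises oestradiol, was the most abundant P450 transcript per length, with 32.3 CPM per kb with TRMs, 27.6 with monocytes and 79.2 alone. Its level was 212, 167 and 187 CPM with TRMs, 139.5, 163 and 180 CPM with monocytes, and 505, 407 and 474 CPM alone. Every co-culture library lay below every library of tumour cells alone, and the co-culture groups overlapped each other. The log2 difference was -1.29 (SE 0.15, limma adjusted p = 7.03e-05) with TRMs and -1.52 (SE 0.15, limma adjusted p = 2.02e-05) with monocytes. Cyp1a1 was far scarcer, at 4.16, 1.33 and 1.73 CPM with TRMs, 0.946, 1.24 and 3.47 CPM with monocytes, and 7.79, 4.91 and 9.27 CPM alone. Again the groups did not overlap with tumour cells alone, but the spread within each was wide. Its log2 difference was -1.74 (SE 0.57, limma adjusted p = 0.0486) with TRMs and -2.15 (SE 0.57, limma adjusted p = 0.013) with monocytes. The TRM call was lost without TRM replicate 2 or 3, monocyte replicate 2, or alone replicate 1, 2 or 3, with adjusted p of 0.0513 to 0.196, and by edgeR (0.0681). The monocyte call was lost without alone replicate 3 (0.0636).

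The promoters of Cyp1a1 and Cyp1b1 are shown because both carry the core letters of the AHR and ARNT response element close to the start site. They are RefSeq windows on GRCm38.p6 from 250 bases before to 50 after the start, written along the gene, with the match to GCGTG in capitals (read on the opposite strand it appears as CACGC). The match began at position -54 of Cyp1a1 (chr9:57697363-57697662, plus strand) and at -76 of Cyp1b1 (chr17:79715012-79715311, minus strand).
Cyp1a1: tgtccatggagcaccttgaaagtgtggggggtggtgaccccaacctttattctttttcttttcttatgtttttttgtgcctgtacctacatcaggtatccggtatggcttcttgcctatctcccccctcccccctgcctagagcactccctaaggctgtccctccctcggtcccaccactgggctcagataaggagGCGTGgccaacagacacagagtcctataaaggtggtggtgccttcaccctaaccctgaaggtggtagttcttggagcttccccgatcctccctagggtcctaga
Cyp1b1: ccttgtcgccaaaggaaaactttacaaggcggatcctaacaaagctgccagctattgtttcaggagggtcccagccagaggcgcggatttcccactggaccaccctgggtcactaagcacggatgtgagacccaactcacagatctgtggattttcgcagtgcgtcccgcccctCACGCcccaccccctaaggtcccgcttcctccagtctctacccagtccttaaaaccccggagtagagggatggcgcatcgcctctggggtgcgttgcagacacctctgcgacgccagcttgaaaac
These letters are common. They also make up part of the hypoxia response element, and GCGTG on either strand was found in 32.4% of all 32851 RefSeq promoter windows, in 50.1% of the 12528 windows of genes in the table and in 18 of the 58 windows (31.0%) found for 47 of the members. The antioxidant response element letters TGACNNNGC, bound by NRF2 with small MAF proteins, were in 12.4% of all windows, 14.2% of windows of genes in the table and 5 of the members' 58 (8.62%). The letters can share bases, as they do in the Gstm5 window, and a match is a description of the window only.

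The neighbouring genes Cyp2c55 and Cyp2c65, mouse CYP2C enzymes of the kind that oxidise arachidonic acid and many drugs, lie 18321 bases apart on chromosome 19 and were almost lost from the co-cultured cells. Cyp2c65 had 1.16, 0.56 and 0.102 CPM with TRMs, 0.459, 0.314 and 1.79 CPM with monocytes, and 22.4, 12.9 and 20.8 CPM alone. The highest co-culture library was far below the lowest library of tumour cells alone. The log2 difference was -5.49 (SE 0.86, limma adjusted p = 0.000722) with TRMs and -4.83 (SE 0.86, limma adjusted p = 0.00119) with monocytes. About 20.6% of its 50-base words occur in another gene, mainly Cyp2c66, so some of its reads are of uncertain origin. Cyp2c55 had 2, 0 and 0 reads with TRMs, 0, 3 and 39 reads with monocytes, and 140, 76 and 210 reads alone. Only monocyte replicate 3 kept more than a few reads. With 2 reads over the TRM libraries against 426 over the libraries of tumour cells alone, the ratio of alone to TRM levels was 157 (95% counting interval 43.3 to 1300). The limma adjusted p was 0.00736, and 0.0539 without alone replicate 3. With monocytes the limma adjusted p was 0.0333, and the call was lost without monocyte replicate 1 or 2 or alone replicate 1, 2 or 3 (adjusted p of 0.0749 to 0.14), by edgeR (0.0566) and by DESeq2 (0.149). The windows of this pair are shown to set 2 genes that fell together side by side; the 9 capitals in Cyp2c65 are a TGACNNNGC match on the opposite strand from position -8, and the Cyp2c55 window holds neither set of letters (chr19:39006769-39007068 for Cyp2c55 and chr19:39060756-39061055 for Cyp2c65, both plus strand).
Cyp2c55: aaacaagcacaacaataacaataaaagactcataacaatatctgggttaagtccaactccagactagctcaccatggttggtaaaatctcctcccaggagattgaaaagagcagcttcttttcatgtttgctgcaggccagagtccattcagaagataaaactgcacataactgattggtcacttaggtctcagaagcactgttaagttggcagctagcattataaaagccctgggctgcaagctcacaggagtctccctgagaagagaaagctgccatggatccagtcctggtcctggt
Cyp2c65: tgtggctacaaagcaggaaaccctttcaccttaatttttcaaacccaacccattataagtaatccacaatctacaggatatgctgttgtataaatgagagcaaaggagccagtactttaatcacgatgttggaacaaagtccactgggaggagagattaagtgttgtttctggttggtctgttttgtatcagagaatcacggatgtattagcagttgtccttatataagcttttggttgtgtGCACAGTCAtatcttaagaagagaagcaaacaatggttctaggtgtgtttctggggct

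The other P450s called lower in at least 1 comparison were Cyp2s1, Cyp3a13, Cyp4v3 and Cyp4b1. Cyp2s1, an epithelial P450 found mainly outside the liver, had 20.9, 27.9 and 25.9 CPM with TRMs, 12.2, 15.3 and 27.2 CPM with monocytes, and 90.7, 60.2 and 77.7 CPM alone. Cyp3a13, a mouse CYP3A enzyme, had 52.0, 31.0 and 30.8 CPM with TRMs, 24.9, 33.1 and 39.9 CPM with monocytes, and 128, 91.6 and 109 CPM alone. For both genes the co-cultures lay wholly below tumour cells alone. Cyp2s1 differed by -1.60 (SE 0.26, limma adjusted p = 0.00106) with TRMs and by -2.13 (SE 0.26, limma adjusted p = 0.000101) with monocytes, in log2 units. Cyp3a13 differed by -1.56 (SE 0.23, limma adjusted p = 0.000502) and by -1.76 (SE 0.23, limma adjusted p = 0.000148). Exons of Cyp2s1 overlap an opposite-strand gene by 260 bases, and reads of the pair cannot be told apart without strand.

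Cyp4v3, an omega-hydroxylase of medium-chain fatty acids, had 7.92, 9.87 and 9.75 CPM with TRMs, 7.22, 8.19 and 7.09 CPM with monocytes, and 20.9, 12.9 and 17.2 CPM alone, with no overlap. Its log2 difference was -0.87 with TRMs (limma adjusted p = 0.025) and -1.16 with monocytes (limma adjusted p = 0.00361). The TRM call was lost without TRM replicate 1, 2 or 3 or alone replicate 1 or 3 (adjusted p of 0.0538 to 0.125). Cyp4b1, a lung P450 that activates toxins such as 4-ipomeanol, was called lower with monocytes: 0.73, 3.79 and 3.72 CPM with monocytes, against 13.5, 6.54 and 10.3 CPM alone (limma adjusted p = 0.0222). That call was lost without monocyte replicate 1 (0.077), alone replicate 1 (0.084) or alone replicate 3 (0.0684). With TRMs it had 1.60, 4.04 and 6.05 CPM (limma adjusted p = 0.118 against tumour cells alone).

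Cyp2u1, which hydroxylates long-chain fatty acids, was the single P450 that rose. It had 6.66, 10.1 and 8.20 CPM with TRMs, 15.1, 12.9 and 12.1 CPM with monocytes, and 3.15, 4.33 and 3.29 CPM alone. The 3 groups did not overlap, and the monocyte co-cultures were highest. Its log2 difference from tumour cells alone was 1.21 (SE 0.27, limma adjusted p = 0.00786) with TRMs and 1.90 (SE 0.27, limma adjusted p = 0.000284) with monocytes. Without TRM replicate 2 the TRM value had a limma adjusted p of 0.0572, and the authors' deposited table for TRMs does not call it. Its exons overlap an opposite-strand gene by 548 bases, so the limit given for Cyp2s1 holds here too. The same limit holds for Aldh6a1 (1078 bases), Aldh7a1 (476 bases) and Sult2b1 (321 bases), and such overlaps occur in 18 members in all.

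**Figure D2:**
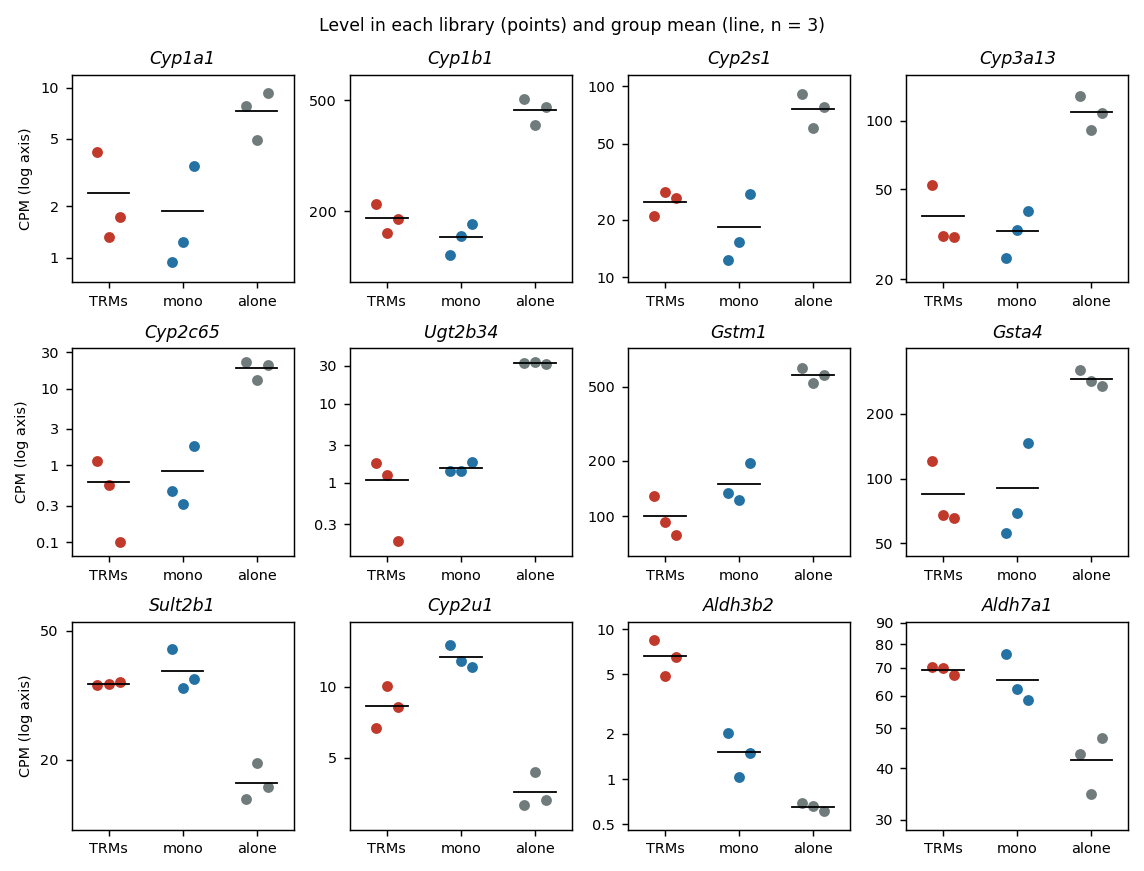
Level in CPM (log axes) of 12 members in each library, with group means as lines (n = 3); TRMs, monocytes (mono) and alone stand from left to right. In the upper 8 panels every co-culture library lies below every library of tumour cells alone, and in Sult2b1, Cyp2u1, Aldh3b2 and Aldh7a1 every co-culture library lies above.

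Glutathione S-transferases attach glutathione to electrophiles and made up the largest share of the set's RNA in tumour cells alone. Of 15 Gst members, 7 (46.7%) were lower and 1 (6.67%) was higher with TRMs, against 8.15% and 10.2% of all genes. With monocytes 7 (46.7%) were lower and 2 (13.3%) higher, against 12.7% and 14.7% of all genes. Median log2 differences of the Gst members were -1.64 and -1.23, against -0.0019 and -0.0164 over all genes. The lower count with TRMs was 4 without TRM replicate 3 and 4 without alone replicate 1, and the higher count with monocytes was 1 without alone replicate 1 or 3. Their summed level was 1087, 845 and 705 CPM with TRMs, 855, 869 and 1147 CPM with monocytes, and 2080.0, 1822 and 1898 CPM alone. Per length, Gsto1 (454 CPM per kb), Gstm1 (393) and Gsta4 (229) were the most abundant members in tumour cells alone.

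Gstm1, the main mu-class transferase, had the smallest adjusted p of the set, in the comparison with TRMs. It had 129, 93.6 and 79.7 CPM with TRMs, 134, 122.5 and 194 CPM with monocytes, and 633, 526 and 578 CPM alone. No co-culture library came near the range of tumour cells alone, and the TRM and monocyte groups overlapped. The log2 difference was -2.55 (SE 0.20, limma adjusted p = 3.11e-06) with TRMs and -1.97 (SE 0.20, limma adjusted p = 2.79e-05) with monocytes. Gsta4, which conjugates the lipid peroxidation product 4-hydroxynonenal, had 121, 67.4 and 65.8 CPM with TRMs, 56.2, 69.3 and 146 CPM with monocytes, and 320.0, 282 and 269 CPM alone. Its highest co-culture library, monocyte replicate 3, was still well below tumour cells alone. The log2 difference was -1.83 (SE 0.30, limma adjusted p = 0.00109) with TRMs and -1.81 (SE 0.30, limma adjusted p = 0.000821) with monocytes.

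The other mu-class members moved unevenly. Gstm2 averaged 9.32 ± 1.24 CPM with TRMs, 12.5 ± 8.94 CPM with monocytes and 45.9 ± 12.8 CPM alone (SD, n = 3 each), and monocyte replicate 3, at 22.7 CPM, was the highest of the co-cultures. Its log2 difference was -2.27 with TRMs (limma adjusted p = 0.00141) and -2.07 with monocytes (limma adjusted p = 0.00168). Gstm3 averaged 5.47 ± 1.91 CPM with TRMs, 6.88 ± 2.81 CPM with monocytes and 19.8 ± 4.08 CPM alone, with log2 differences of -1.90 (limma adjusted p = 0.00287) and -1.60 (limma adjusted p = 0.00578). Gstm5 and Gstm4, named here after their values were seen, are members of the same cluster. Gstm5 stood at 18.8 to 20.9 CPM with TRMs, 17.2 to 35.4 CPM with monocytes and 16.5 to 21.4 CPM alone, with log2 differences of 0.06 (limma adjusted p = 0.898) and 0.24 (limma adjusted p = 0.512). Gstm4 stood at 3.89 to 4.69 CPM with TRMs, 2.16 to 5.22 CPM with monocytes and 1.61 to 2.57 CPM alone, with log2 differences of 1.03 (limma adjusted p = 0.113) and 0.86 (limma adjusted p = 0.152). Of the 50-base words of Gstm1 18.9% and of Gstm3 28.8% occur in another gene.

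Gstm5, Gstm3, Gstm2, Gstm1 and Gstm4 lie in this order on chromosome 3, with 12418 to 65009 bases between neighbours. A ratio taken within a library does not depend on scaling. Gstm4 over Gstm1 was -5.04, -4.32 and -4.36 in log2 with TRMs, -4.69, -5.83 and -5.44 with monocytes, and -8.28, -8.35 and -7.81 alone. Gstm5 over Gstm1 was -2.62, -2.31 and -2.02 with TRMs, -2.96, -2.73 and -2.46 with monocytes, and -5.04, -5.00 and -4.76 alone. Both ratios were higher in every co-culture library than in any library of tumour cells alone. Gstm3 over Gstm1 was -4.15, -4.03 and -4.53 with TRMs, -4.20, -4.98 and -4.36 with monocytes, and -4.83, -5.12 and -4.71 alone. This ratio was higher in every TRM library than alone, by less than the ratios above, and monocyte replicate 2 overlapped tumour cells alone. The ratio of Gstm2 to Gstm1 overlapped between the groups (-3.58 to -3.24 with TRMs, -4.35 to -3.10 with monocytes and -4.07 to -3.51 alone).

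Gsto1 and Gsto2, omega-class transferases that also reduce dehydroascorbate, are 743 bases apart on chromosome 19 and moved in opposite directions. Gsto1 had 734, 569 and 471 CPM with TRMs, 541, 565 and 661 CPM with monocytes, and 971, 881 and 903 CPM alone. Gsto2 had 12.2, 19.8 and 11.5 CPM with TRMs, 23.5, 14.3 and 12.6 CPM with monocytes, and 3.50, 4.42 and 3.77 CPM alone. All co-culture libraries were below tumour cells alone for Gsto1 and above them for Gsto2. Gsto1 differed by -0.66 (SE 0.16, limma adjusted p = 0.0121) with TRMs and by -0.65 (SE 0.16, limma adjusted p = 0.0096) with monocytes. The TRM call was lost without TRM replicate 2 (0.051), TRM replicate 3 (0.063) or alone replicate 1 (0.0533). Gsto2 differed by 1.86 (SE 0.30, limma adjusted p = 0.000919) with TRMs and by 2.06 (SE 0.30, limma adjusted p = 0.0003) with monocytes. Within a library, the log2 ratio of Gsto2 to Gsto1 was -5.91, -4.85 and -5.35 with TRMs, -4.52, -5.31 and -5.71 with monocytes, and -8.12, -7.64 and -7.90 alone. Their RefSeq windows on GRCm38.p6, shown because the genes are neighbours with opposite changes, hold neither GCGTG nor TGACNNNGC on either strand and so are wholly in lower case (chr19:47854723-47855022 for Gsto1 and chr19:47865295-47865594, the first of the windows found for Gsto2, both plus strand).
Gsto1: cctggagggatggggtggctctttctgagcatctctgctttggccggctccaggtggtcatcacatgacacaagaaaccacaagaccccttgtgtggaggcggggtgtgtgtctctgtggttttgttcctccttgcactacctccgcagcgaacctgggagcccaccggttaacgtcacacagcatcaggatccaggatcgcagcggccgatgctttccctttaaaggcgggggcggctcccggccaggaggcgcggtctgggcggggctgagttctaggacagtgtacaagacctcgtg
Gsto2: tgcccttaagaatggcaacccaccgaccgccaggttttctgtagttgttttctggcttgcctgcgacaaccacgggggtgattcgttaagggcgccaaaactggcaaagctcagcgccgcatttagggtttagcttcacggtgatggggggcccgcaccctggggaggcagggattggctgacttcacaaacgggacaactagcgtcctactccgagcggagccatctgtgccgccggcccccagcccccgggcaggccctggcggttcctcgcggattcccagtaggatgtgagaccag

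**Figure D3:**
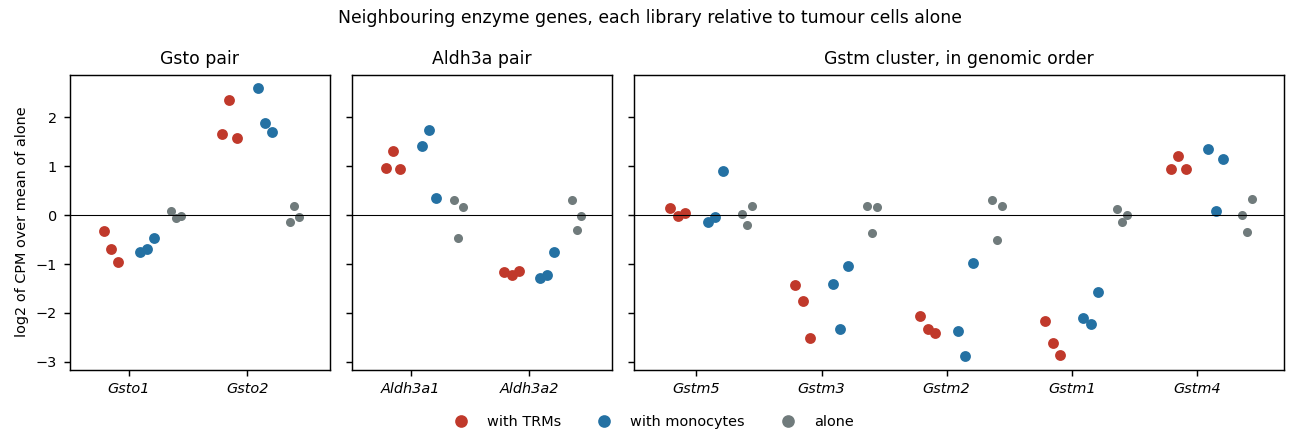
Log2 of CPM in each library over the mean log2 of tumour cells alone, for the Gsto pair, the Aldh3a pair and the Gstm cluster in genomic order; TRMs are red, monocytes blue and alone grey. Gsto1 and Aldh3a2 lie below 0 and Gsto2 and Aldh3a1 above 0 in every co-culture library, and Gstm3, Gstm2 and Gstm1 lie below 0, between Gstm5 on both sides of 0 and Gstm4 above it.

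The remaining Gst calls rested on few reads or on single libraries. Gsta1, an alpha-class transferase, had 15, 7 and 2 reads with TRMs, 2, 18 and 11 reads with monocytes, and 67, 81 and 111 reads alone. Its limma adjusted p was 0.0337 with TRMs and 0.0276 with monocytes, lower in each. The TRM call was lost without TRM replicate 2 or 3 or alone replicate 1, 2 or 3 (0.0826 to 0.115), and the monocyte call without monocyte replicate 1 or alone replicate 1, 2 or 3 (0.0714 to 0.0928). Of its 50-base words 90.5% occur in another gene, so its reads cannot be assigned to it with confidence. Gsta3 was called lower with monocytes, with 0, 6 and 9 reads against 71, 52 and 63 reads alone (limma adjusted p = 0.0319), and lost the call without monocyte replicate 1 (0.0825) or alone replicate 1 (0.108), 2 (0.0817) or 3 (0.0896). Gstt1 was called lower with TRMs, with 1, 14 and 10 reads against 92, 31 and 139 reads alone (limma adjusted p = 0.046). That call was lost without TRM replicate 1 or 3, monocyte replicate 1 or alone replicate 1 or 3 (0.0514 to 0.166), by edgeR (0.0618) and by limma-voom (0.0938). Gstp1, the pi-class transferase of many epithelial tumours, rose with monocytes: 42.4, 49.2 and 41.0 CPM with monocytes, against 19.0, 34.4 and 20.2 CPM alone (limma adjusted p = 0.0141). The call was lost without monocyte replicate 2 (0.054), alone replicate 1 (0.0668) or alone replicate 3 (0.0651), and 33.7% of its 50-base words are shared with Gstp2. With TRMs Gstp1 had 29.1, 38.6 and 23.5 CPM, overlapping tumour cells alone.

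Of the 6 glucuronosyltransferases, 2 (33.3%) were lower with TRMs, against 8.15% of all genes, and 1 (16.7%) was lower with monocytes, against 12.7% of all genes, while 0 were higher. The summed level of the 6 Ugt members was 9.01, 3.36 and 1.59 CPM with TRMs, 4.92, 4.94 and 2.73 CPM with monocytes, and 46.6, 38.5 and 40.1 CPM alone, and most of it alone was Ugt2b34. The median log2 difference of the 6 was -2.66 with TRMs and -2.88 with monocytes. Ugt2b34, a glucuronosyltransferase of the UGT2B family that acts on steroids and drugs, had 1.78, 1.27 and 0.183 CPM with TRMs, 1.43, 1.40 and 1.83 CPM with monocytes, and 32.9, 33.5 and 31.9 CPM alone. The libraries of tumour cells alone were within a narrow range, and every co-culture library was far below it. The log2 difference was -5.46 (SE 0.65, limma adjusted p = 0.000116) with TRMs and -4.41 (SE 0.65, limma adjusted p = 0.000351) with monocytes. Ugt2b36 had 20, 3 and 1 reads with TRMs, 5, 6 and 18 reads with monocytes, and 107, 43 and 100 reads alone. It was called lower with TRMs (limma adjusted p = 0.0342) and missed the threshold with monocytes (0.0595); the TRM call was lost without TRM replicate 2 or 3 or alone replicate 1, 2 or 3 (0.0565 to 0.13) and by edgeR (0.0811). Ugt1a6a, Ugt1a6b, Ugt1a7c and Ugt2b35 were not called in either comparison; Ugt1a6a reached 3.47 CPM in TRM replicate 1, against 0.79 to 2.97 CPM alone, and the Ugt1a genes share 52.1% to 79.8% of their 50-base words with other genes. The count of lower Ugt members with TRMs, 2 of 6, was thus 1 without any of those 5 libraries, and with monocytes it was 1, or 2 without TRM replicate 1 or 3 or monocyte replicate 2 or 3.

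All 3 sulfotransferases were called with TRMs, in different directions, where 18.4% of all genes were called. Of these 3, 2 (66.7%) were lower and 1 (33.3%) was higher, against 8.15% and 10.2% of all genes. With monocytes 1 (33.3%) was lower and 1 (33.3%) higher, against 12.7% and 14.7% of all genes. Sult2b1, which sulfates cholesterol in epithelia, had 33.9, 34.3 and 34.9 CPM with TRMs, 43.9, 33.3 and 35.5 CPM with monocytes, and 15.1, 19.5 and 16.5 CPM alone. It was higher in every co-culture library, by 1.02 (SE 0.17, limma adjusted p = 0.00137) with TRMs and 1.14 (SE 0.17, limma adjusted p = 0.000435) with monocytes in log2. Sult1c2 had 0, 2 and 0 reads with TRMs, 1, 1 and 0 reads with monocytes, and 69, 51 and 143 reads alone. The ratio of alone to co-culture levels was 97.2 for TRMs (95% counting interval 26.7 to 807) and 112 for monocytes (30.7 to 928). The limma adjusted p was 0.0214 with TRMs and 0.016 with monocytes, and each call was lost without alone replicate 1, 2 or 3 (0.081 to 0.159 with TRMs and 0.0639 to 0.126 with monocytes). Sult1a1, which sulfates phenols, had 3.54, 1.33 and 1.04 CPM with TRMs, 0.946, 1.32 and 6.92 CPM with monocytes, and 14.1, 4.23 and 9.72 CPM alone. It was called lower with TRMs (limma adjusted p = 0.0413), and lost the call without TRM replicate 2 or 3 or alone replicate 1 or 3 (0.126 to 0.154), by edgeR (0.0515) and by limma-voom (0.0528). With monocytes it just missed the threshold (0.0524), and without monocyte replicate 3, its highest co-culture library, the adjusted p was 0.00345. The lower count of 2 of 3 with TRMs was therefore 0 without alone replicate 1 or 3 and 1 without TRM replicate 2, TRM replicate 3 or alone replicate 2.

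Called aldehyde dehydrogenases lay in both directions. Of 17 members, 3 (17.6%) were higher and 2 (11.8%) lower with TRMs, against 10.2% and 8.15% of all genes. With monocytes 3 (17.6%) were higher and 1 (5.88%) was lower, against 14.7% and 12.7% of all genes. No test of a difference between families was run. The monocyte count of higher members was 1 without monocyte replicate 2, and that of lower members was 2 when monocyte replicate 2 was left out and 3 when monocyte replicate 3 was. The summed level was 791 to 918 CPM with TRMs, 873 to 908 CPM with monocytes and 908 to 1037 CPM alone, and the median log2 difference was -0.11 with TRMs and -0.07 with monocytes. The most abundant members were not called. Aldh2, which clears acetaldehyde, averaged 208 ± 16.3 CPM with TRMs, 208 ± 30.7 CPM with monocytes and 263 ± 27.1 CPM alone (limma adjusted p = 0.121 and 0.0892), and Aldh18a1 averaged 158 ± 24.2 CPM with TRMs, 171 ± 20.1 CPM with monocytes and 176 ± 58.7 CPM alone (SD, n = 3 each).

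The Aldh3a genes, 4995 bases apart on chromosome 11, changed in opposite directions. Aldh3a2, the fatty aldehyde dehydrogenase, had 65.7, 62.6 and 66.6 CPM with TRMs, 60.2, 62.4 and 86.9 CPM with monocytes, and 182, 119 and 146 CPM alone. Aldh3a1, a stress-inducible enzyme that clears lipid peroxidation aldehydes, had 66.2, 84.4 and 64.8 CPM with TRMs, 89.8, 114 and 43.2 CPM with monocytes, and 42.0, 24.4 and 38.0 CPM alone. Groups did not overlap with tumour cells alone in either gene, though monocyte replicate 3 came close for Aldh3a1. Aldh3a2 differed by -1.18 (SE 0.18, limma adjusted p = 0.000607) with TRMs and by -1.09 (SE 0.18, limma adjusted p = 0.000703) with monocytes. Aldh3a1 differed by 1.07 (SE 0.30, limma adjusted p = 0.0248) with TRMs and by 1.17 (SE 0.30, limma adjusted p = 0.0114) with monocytes. The TRM call of Aldh3a1 was lost without TRM replicate 2 (0.108) or alone replicate 2 (0.0932), and the monocyte call without monocyte replicate 2 (0.0551). The log2 ratio of Aldh3a1 to Aldh3a2 was 0.01, 0.43 and -0.04 with TRMs, 0.58, 0.87 and -1.01 with monocytes, and -2.11, -2.29 and -1.94 alone.

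Aldh3b2, a lipid-associated enzyme for fatty aldehydes, had the largest log2 difference of the members called higher with TRMs, and was not called with monocytes. It had 8.48, 4.86 and 6.54 CPM with TRMs, 2.03, 1.03 and 1.49 CPM with monocytes, and 0.692, 0.657 and 0.616 CPM alone. The 3 groups did not overlap, with the TRM co-cultures highest. The log2 difference from tumour cells alone was 3.30 (SE 0.49, limma adjusted p = 0.000539) with TRMs and 1.16 (SE 0.49, limma adjusted p = 0.1) with monocytes. About 24.2% of its 50-base words occur in another gene, chiefly Aldh3b3. Its neighbour Aldh3b1, 42519 bases away, was not called, with 5.07 to 9.60 CPM with TRMs, 3.76 to 11.4 CPM with monocytes and 9.76 to 16.5 CPM alone.

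Aldh members of amino acid and carnitine metabolism were also among the calls. Aldh7a1 had 70.5, 70.2 and 67.4 CPM with TRMs, 75.5, 62.3 and 58.6 CPM with monocytes, and 43.3, 34.7 and 47.3 CPM alone. It was higher in every co-culture library, by 0.74 (SE 0.16, limma adjusted p = 0.00567) with TRMs and 0.65 (SE 0.16, limma adjusted p = 0.00835) with monocytes in log2. Aldh6a1 had 23.5, 33.6 and 28.9 CPM with TRMs, 35.4, 45.8 and 35.99 CPM with monocytes, and 54.5, 53.2 and 49.0 CPM alone, and was called lower with TRMs (log2 difference -0.88, SE 0.18, limma adjusted p = 0.00362) but not with monocytes (-0.43, limma adjusted p = 0.0877). Aldh9a1, which acts in carnitine synthesis, had 76.0, 107 and 74.6 CPM with TRMs, 86.6, 93.8 and 86.9 CPM with monocytes, and 57.1, 64.2 and 62.4 CPM alone. It was called higher with monocytes (limma adjusted p = 0.02), a call lost without monocyte replicate 2 (0.0656), alone replicate 1 (0.0783) or alone replicate 3 (0.0563), and it missed the threshold with TRMs (0.0529). The 3 carboxylesterases, which hydrolyse ester drugs and lipids, were not called. Ces2g, the most abundant of them, stood at 9.60 to 31.0 CPM with TRMs, 11.8 to 25.4 CPM with monocytes and 13.3 to 22.7 CPM alone. In all, 28 members were called against tumour cells alone in neither co-culture, with mean levels of 0.43 to 226 CPM, 7 of them under 1 CPM.

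Set directly against each other, the co-cultures differed in 49 genes (0.398% of those tested, with 0.325% higher and 0.073% lower with TRMs), of which 0 were members by limma. At an unadjusted limma p under 0.05 there were 6 of the 58 members, against 1437 of all 12326 genes. Over all genes edgeR called 44, limma-voom called 86 and DESeq2 called 336. Of the members, edgeR and limma-voom called 0 and DESeq2 called 1. That member was Aldh3b2, with 8.48, 4.86 and 6.54 CPM with TRMs, against 2.03, 1.03 and 1.49 CPM with monocytes. Its log2 difference was 2.15 (SE 0.49, limma adjusted p = 0.0774; DESeq2 adjusted p = 0.000912), and on log2 of the value plus 1 the limma adjusted p was 0.0302. The range of its limma adjusted p when each library was left out was 0.061 to 0.296. The other 5 were Gstm1 (log2 difference -0.58, limma adjusted p = 0.241), Aldh6a1 (-0.45, limma adjusted p = 0.32), Cyp2u1 (-0.70, limma adjusted p = 0.327), Ces1a (-2.42, limma adjusted p = 0.333) and Gstp1 (-0.56, limma adjusted p = 0.375), all lower with TRMs than with monocytes, and none of them passed the test. A member called in 1 co-culture and not in the other is therefore not shown to differ between them.

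Both comparisons with tumour cells alone also come as the authors' deposited tables, and 45 of the 58 members are in each. In the authors' deposited table for TRMs, 6 members were higher and 22 lower at a false discovery rate under 0.05, and 24 of these 28 were also called here. In the authors' deposited table for monocytes, 7 were higher and 20 lower, and 25 of these 27 were also called here. Only the authors called Aldh1a1, Aldh1a7, Aldh9a1 and Cyp4b1 with TRMs, and Ugt2b36 and Sult1a1 with monocytes. The share of all genes called in the authors' tables is not reported here, so these counts compare calls and have no background.

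Lists of genes around these enzymes, none of them members, were read from the same limma fit; genes named from them beyond 4 a list were chosen after their values were seen. Of 25 tested receptors and regulators of the enzymes, 8 (32.0%) were lower and 1 (4.0%) was higher with TRMs, against 8.15% and 10.2% of all genes (medians of -0.60 for the list and -0.0019 for all genes). With monocytes 11 (44%) were lower and 1 (4.0%) was higher, against 12.7% and 14.7% of all genes (medians of -0.62 and -0.0164). The lower count with TRMs was 4 without TRM replicate 2 or 3 or alone replicate 3, and with monocytes it was 7 without alone replicate 3; the higher count with monocytes was 2 without alone replicate 2. Ahr had 134, 133.5 and 130.2 CPM with TRMs, 80.6, 105 and 102 CPM with monocytes, and 167, 205 and 203 CPM alone. Both co-cultures were below tumour cells alone without overlap, and between the co-cultures Ahr was not called (log2 difference of TRMs from monocytes 0.48, limma adjusted p = 0.17). Its log2 difference was -0.52 (SE 0.14, limma adjusted p = 0.0203) with TRMs and -1.003 (SE 0.14, limma adjusted p = 0.000247) with monocytes, and the TRM call was lost without TRM replicate 2 or 3 or alone replicate 2 or 3 (0.0621 to 0.0921). Nfe2l2 averaged 192 ± 18.2 CPM with TRMs, 189.7 ± 8.78 CPM with monocytes and 294 ± 6.12 CPM alone, with log2 differences of -0.62 (limma adjusted p = 0.00317) and -0.63 (limma adjusted p = 0.00193). Keap1 averaged 101 ± 4.06 CPM with TRMs, 112 ± 20.6 CPM with monocytes and 58.02 ± 2.57 CPM alone, with log2 differences of 0.80 (limma adjusted p = 0.00215) and 0.93 (limma adjusted p = 0.000515). The pair thus moved in opposite directions in both comparisons, which share their controls.

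Transcription factors of the foregut and liver made up most of the other lower regulators. Onecut2 averaged 109 ± 45.8 CPM with TRMs, 84.7 ± 11.6 CPM with monocytes and 229 ± 12.5 CPM alone (limma adjusted p = 0.00377 and 0.00062). Hnf4a, which drives many P450 and Ugt genes in liver, had 159.8, 127 and 121 CPM with TRMs, 111, 89.4 and 213 CPM with monocytes, and 298, 199.8 and 326 CPM alone. Monocyte replicate 3 overlapped the lowest library of tumour cells alone. Its limma adjusted p was 0.021 with TRMs, lost without TRM replicate 2 or 3 or alone replicate 1 or 3 (0.0716 to 0.0932), and 0.0104 with monocytes, lost without alone replicate 3 (0.0503). Foxa1 was lower in both comparisons (limma adjusted p of 0.00707 with TRMs and 0.00566 with monocytes). Nr1i2 was scarce, at 1.36 ± 0.69 CPM with TRMs, 0.866 ± 0.51 CPM with monocytes and 2.84 ± 0.47 CPM alone. It was called with monocytes (limma adjusted p = 0.0391), and lost the call without TRM replicate 2, monocyte replicate 1 or 2 or alone replicate 1, 2 or 3 (0.054 to 0.124), by edgeR (0.0812) and when fitted without the third group (0.0556). Arnt averaged 146 ± 11.8 CPM with TRMs, 115.5 ± 14.99 CPM with monocytes and 162 ± 10.5 CPM alone (SD, n = 3 each), and was called lower with monocytes (limma adjusted p = 0.0161), a call lost without monocyte replicate 1 (0.0527) or alone replicate 3 (0.0562).

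**Figure D4:**
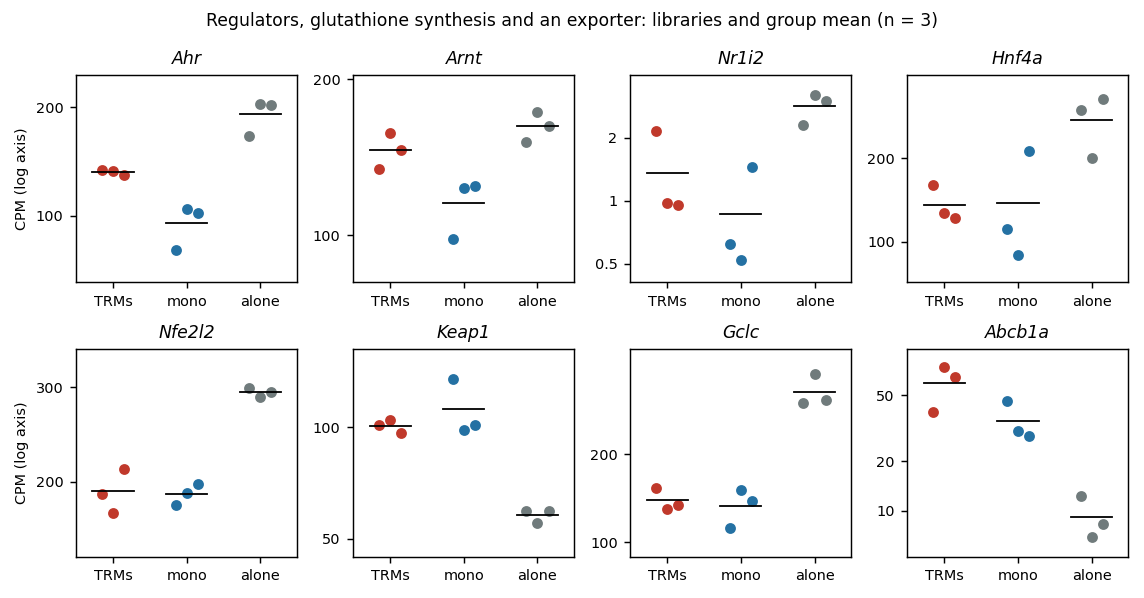
Level in CPM (log axes) in each library, with group means as lines (n = 3), of 6 regulators, of Gclc and of Abcb1a; TRMs, monocytes (mono) and alone stand from left to right. Ahr, Nfe2l2 and Gclc lie lower, and Keap1 and Abcb1a higher, in every co-culture library than in any library of tumour cells alone.

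Both subunits of glutamate-cysteine ligase, the rate-limiting enzyme of glutathione synthesis, were lower. Gclc, its catalytic subunit, had 153, 130.2 and 133 CPM with TRMs, 111, 150.3 and 138 CPM with monocytes, and 299, 376 and 307 CPM alone. Every co-culture library was below every library of tumour cells alone. The log2 difference was -1.23 (SE 0.15, limma adjusted p = 0.000121) with TRMs and -1.30 (SE 0.15, limma adjusted p = 5.89e-05) with monocytes. Gclm, its modifier subunit, differed by -0.65 in both (limma adjusted p = 0.00771 and 0.00575). Gss, glutathione synthetase, was not called (-0.22, limma adjusted p = 0.53, with TRMs and -0.51, limma adjusted p = 0.0855, with monocytes). Mgst3, a membrane-bound enzyme with glutathione transferase activity, was higher with monocytes (0.82, limma adjusted p = 0.00465) and missed the threshold with TRMs (0.54, limma adjusted p = 0.0529). Over the list of 23 tested phase II and cosubstrate genes, 3 (13%) were lower and 1 (4.35%) was higher with TRMs, against 8.15% and 10.2% of all genes, and 4 (17.4%) were lower and 3 (13%) higher with monocytes, against 12.7% and 14.7% (median log2 differences of 0.08 and -0.19). The higher count with TRMs was 0 without TRM replicate 1 or 2 or alone replicate 1 or 3, and 2 without TRM replicate 3, monocyte replicate 1 or 3 or alone replicate 2; the lower count with monocytes was 2 without monocyte replicate 1 or alone replicate 1.

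Other phase I enzymes moved in both directions. Of 35 tested, 9 (25.7%) were lower and 3 (8.57%) higher with TRMs, against 8.15% and 10.2% of all genes, and 7 (20.0%) were lower and 5 (14.3%) higher with monocytes, against 12.7% and 14.7% (median log2 differences of -0.06 and -0.28). The lower count with TRMs was 5 without TRM replicate 2 or alone replicate 1 or 3, and with monocytes it was 4 without monocyte replicate 1 or alone replicate 1 or 3. Akr1c18, which inactivates progesterone, had 5.54, 5.63 and 8.57 CPM with TRMs, 8.24, 6.35 and 6.37 CPM with monocytes, and 0.602, 0.159 and 0.376 CPM alone. Akr1c19, of the same aldo-keto reductase family, had 11.04, 7.69 and 5.60 CPM with TRMs, 5.16, 8.65 and 26.3 CPM with monocytes, and 72.0, 61.3 and 63.9 CPM alone. The co-cultures lay wholly above tumour cells alone for the first and wholly below for the second. Akr1c18 differed by 4.29 (limma adjusted p = 0.000116) and 4.39 (limma adjusted p = 6.66e-05), and Akr1c19 by -3.07 (limma adjusted p = 0.000444) and -2.64 (limma adjusted p = 0.000852). Akr1c13 was higher in both (1.63, limma adjusted p = 0.000378, and 1.36, limma adjusted p = 0.000915). Rdh10, which oxidises retinol, averaged 787 ± 123 CPM with TRMs, 547 ± 94.2 CPM with monocytes and 1176 ± 35.1 CPM alone (limma adjusted p = 0.0174 and 0.00022), and its TRM call was lost without TRM replicate 2 or 3 or alone replicate 1 or 3 (0.0548 to 0.0843).

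The transporters that export conjugates divided. Of 18 tested, 6 (33.3%) were lower and 3 (16.7%) higher with TRMs, against 8.15% and 10.2% of all genes, and 6 (33.3%) were lower and 3 (16.7%) higher with monocytes, against 12.7% and 14.7% (median log2 differences of -0.47 and -0.39). The lower count was 3 with TRMs without TRM replicate 3 or alone replicate 3, and 3 with monocytes without alone replicate 1 or 3. Abcb1a, P-glycoprotein, had 39.5, 73.6 and 64.2 CPM with TRMs, 46.4, 30.5 and 28.4 CPM with monocytes, and 12.3, 7.00 and 8.37 CPM alone. It was higher in every co-culture library, by 2.67 (SE 0.28, limma adjusted p = 4.14e-05) with TRMs and 1.93 (SE 0.28, limma adjusted p = 0.000286) with monocytes in log2. Slco2a1, a prostaglandin importer, was also higher (1.94, limma adjusted p = 0.000104, and 2.16, limma adjusted p = 3.61e-05). The conjugate exporters Abcc3 and Abcc4 were lower, Abcc3 by -0.82 (limma adjusted p = 0.00526) and -1.30 (limma adjusted p = 0.000163), and Abcc4 by -1.42 (limma adjusted p = 0.00197) and -1.47 (limma adjusted p = 0.00107).

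The electron donors and haem enzymes that P450s need showed small differences both ways: of 18 tested, 3 (16.7%) were higher and 2 (11.1%) lower with TRMs, against 10.2% and 8.15% of all genes, and 3 (16.7%) were higher and 3 (16.7%) lower with monocytes, against 14.7% and 12.7% (median log2 differences of 0.21 and 0.12). The higher count with TRMs was 0 without TRM replicate 2 or alone replicate 1 or 3 and 1 without TRM replicate 1 or 3, the lower count with TRMs was 1 without TRM replicate 3, and the lower count with monocytes was 1 without monocyte replicate 1 or 2 or alone replicate 3. Cyb5a, which passes electrons to P450s, averaged 96.0 ± 4.36 CPM with TRMs, 123 ± 53.2 CPM with monocytes and 201 ± 22.7 CPM alone (limma adjusted p = 0.00937 and 0.0289), and its monocyte call was lost without monocyte replicate 1 or 2 or alone replicate 2 or 3 (0.0511 to 0.0861), by edgeR (0.0513) and when fitted without the third group (0.0525). Cyb5r3, its reductase, was higher with monocytes (0.65, limma adjusted p = 0.00124) and with TRMs (0.43, limma adjusted p = 0.0196); the TRM call was lost without TRM replicate 2 or 3 or alone replicate 1 or 3 (0.0518 to 0.0819) and under scaling by library totals (0.0531). Cpox, of haem synthesis, was lower in both (limma adjusted p = 0.0167 and 0.0127), with the TRM call lost without TRM replicate 3 (0.0505) or alone replicate 2 (0.0555).

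Retinoid handling genes overlap in substrate with the Aldh1a members. Of 11 tested, 1 (9.09%) was lower with TRMs, against 8.15% of all genes, and 2 (18.2%) were lower with monocytes, against 12.7% of all genes, and 0 were higher (median log2 differences of -0.07 and 0.01). The lower count with TRMs was 2 without TRM replicate 1 or monocyte replicate 1 or 3, and the higher count with TRMs was 1 without monocyte replicate 1 or 3. With monocytes the higher count was 3 without monocyte replicate 3 and 1 without alone replicate 2. Rbp4, the retinol carrier, averaged 10.5 ± 3.90 CPM with TRMs, 16.1 ± 5.01 CPM with monocytes and 45.1 ± 9.60 CPM alone (limma adjusted p = 0.000241 and 0.0018). Stra6, its receptor, was called lower with monocytes (limma adjusted p = 0.0092) and not with TRMs (0.0915). Retsat and Rdh14 were not called. Aldh1a1, Aldh1a3 and Aldh1a7, retinal-oxidising members or their close relative, were not called in either comparison. Aldh1a1 stood at 61.5 to 74.9 CPM with TRMs, 40.0 to 99.95 CPM with monocytes and 98.7 to 115 CPM alone. With TRMs it lay below tumour cells alone without overlap (limma adjusted p = 0.11). Its limma adjusted p was 0.00602 without monocyte replicate 1 and 0.00604 when fitted without the third group, and DESeq2 gave 0.0498. For Aldh1a7 with TRMs the limma adjusted p was 0.263, and 0.0354 when fitted without the third group. With monocytes, by limma, Aldh1a1 reached 0.0263 without monocyte replicate 2 and Aldh1a7 0.00691 without monocyte replicate 3.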

How the data were processed

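RNA from 1 ng per sample was copied with the SMART-Seq v4 kit and sequenced on a NextSeq 500, per the labels' protocols. Nothing says that the kit marks strand. STAR 2.5, edgeR and the mm10 build are listed in the submitters' processing notes; how reads were counted, and on which annotation, is not given in the sources used here. Values in the deposited table are normalised signal, in CPM: each value is a whole read count plus 0.5, divided by a scaled library size. All 111051 values gave whole reads within 1e-06 of a read. The authors' deposited comparison tables hold log2 fold changes, mean log2 CPM, a likelihood ratio score, and p-values with false discovery rates, per the file headers; only their calls were compared.

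Log2 of the deposited values was tested with limma 3.58.1 (trend, group means, all 9 libraries, 6 residual degrees of freedom; R 4.3.3), two-sided, with Benjamini-Hochberg adjustment over the 12326 genes left by edgeR's filterByExpr (minimum count 10, minimum total 15), which removed 13. Fitted log2 differences of genes with few reads depend on the added 0.5 read and are not ratios of reads. On the recovered counts, edgeR 4.0.16, DESeq2 1.42.0 and limma-voom served as alternatives; others were log2(value + 1), other filters and scalings, a fit of only the groups compared, the replicate number as a block, and leaving out each library. The labels do not say that equal numbers share a culture or day, so the numbers were not taken as pairs. Same-numbered libraries of different groups had correlations of deviations of -0.0246 to 0.429, which do not settle whether they were paired. Ratios at low reads have exact 95% binomial intervals that cover counting error only. Counts were also simulated, with the mean of each gene over all libraries. For TRMs against alone, limma called 48% of genes changed by 2-fold and 86% of those changed by 4-fold. These shares were 58% and 86% for monocytes against alone, and 47% and 83% between the co-cultures. The simulation changed fewer genes than were called against tumour cells alone, and more than were called between the co-cultures. The adjusted threshold depends on that number, so these shares are not the power of the comparisons made here. Lengths and overlaps came from the GENCODE annotation of the same build, and RefSeq promoter windows (GRCm38.p6) were searched for motifs; shared sequence was counted in words of 50 bases. Python 3.11.15 was used for tables.

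Members are row names that match the P450, Ugt, Gst, Aldh, Sult or Ces patterns. Named were the 5 members spelled out in the rule (Cyp2c55, Cyp2c65, Ugt2b34, Gstm1 and Gsta4), up to 6 called members per family and direction with a mean of at least 1 CPM in the higher group, the 2 most abundant members of each family, and up to 4 genes of each list by smallest p; some genes this rule picks are not reported here, and others are named within counts of 5 or fewer or said to be chosen after their values were seen. Members and lists were chosen with earlier results of these data known.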

Additional observations from a re-analysis of the deposited data

How the results depend on the processing

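None of the 26 members called with TRMs or the 25 called with monocytes changed direction under any alternative run. Of members not called, 10 of 32 with TRMs, 11 of 33 with monocytes and 36 of 58 between the co-cultures changed sign when single libraries were left out; Gstm5, for example, was at -0.04 to 0.15 with TRMs and -0.09 to 0.43 with monocytes. The count of members lower with TRMs (20) was 12 to 22 when each library was left out, and the counts moved by over 1.5 times were 13 without TRM replicate 3, 12 without alone replicate 1 and 12 without alone replicate 3. The count higher with TRMs (6) was 4 to 7, the count lower with monocytes (18) was 12 to 22, and the count higher with monocytes (7) was 5 to 7. Between the co-cultures 0 members were called higher and 0 lower, and 0 without any library; DESeq2 and log2(value + 1) each called 1 higher. With the replicate block, 7 members were higher and 20 lower with TRMs, and 7 higher and 19 lower with monocytes. Between the co-cultures it called 0 either way. The labels link same-numbered libraries by nothing but the number. Other tools gave 16 to 23 lower and 6 to 7 higher with TRMs, and 17 to 20 lower and 7 higher with monocytes. Of 48 calls of named members, 31 held in every alternative and 17 were lost in at least 1. The cause of these changes was not tested. Scaling by library totals moved the median of all genes by -0.0853 with TRMs and -0.0497 with monocytes. Members with few reads, most Ugt members among them, limit what the test could call.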
